A study of Homo sapiens with 4 samples.

Results

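The HOXA, MEIS1 and PBX3 leukemia program was taken as 10 genes that are targets of KMT2A fusion proteins: HOXA3, HOXA5, HOXA6, HOXA7, HOXA9, HOXA10, MEIS1, PBX3, MEF2C and JMJD1C. The members were picked by gene symbol, and all 10 were among the 23622 genes of the deposited table. The cells were MV4-11, an established acute myeloid leukemia (AML) line that carries a fusion of KMT2A with AFF1. RNA sequencing gave 2 libraries labelled sh-NC and 2 labelled sh-IRF1. The sh-NC libraries were controls that the labels list as untreated wild type cells and that the study's text names after a control hairpin. The sh-IRF1 libraries came from the same line after lentiviral delivery of a short hairpin RNA against IRF1, the interferon regulatory factor 1 gene, under puromycin selection. Neither the hairpin behind each sh-IRF1 library nor whether the replicates were separate cultures is stated, so the p-values below measure the spread between these libraries, which may be technical. One cell line and a partial knockdown limit the model.

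KMT2A is a histone methyltransferase that keeps developmental genes active. Its leukemic fusions bring proteins of transcription elongation and the DOT1L methyltransferase to a small set of genes, among them the late HOXA genes and MEIS1. HOX proteins bind DNA together with the TALE homeodomain proteins PBX and MEIS, and in myeloid leukemia HOXA9, MEIS1 and PBX3 are known for holding cells in a progenitor-like, self-renewing state. IRF1 is a transcription factor of the interferon response that binds pairs of GAAA repeats.

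Values are given as normalized counts, which are the reads of a gene divided by 1 size factor per library. Between 17635908 and 18695337 reads per library were recovered from the deposited values. Fold changes are on the log2(normalized count + 1) scale, sh-IRF1 over sh-NC, which understates the change of low genes. Tests were run with limma on the 14120 genes that reached 10 normalized counts in at least 2 libraries, and a gene was called at a Benjamini-Hochberg adjusted p below 0.05. The smallest p that an exact two-sided permutation test of 2 against 2 libraries allows is 0.33, and the calls below depend on the error that limma borrows from other genes. IRF1 itself had 785 and 738 normalized counts in sh-NC and 430 and 432 in sh-IRF1 (log2 fold change -0.82 ± 0.09 SE, adjusted p = 1.69e-10). All 7 markers fixed for leukemic myeloid cells passed the filter, while 0 of 4 erythroid and 0 of 3 epithelial markers were in the table and 1 of 4 T cell markers was, at 0 to 2.81 normalized counts. Of the fixed B cell markers, 3 of 4 passed the filter, with a summed level of 96.4 and 122 normalized counts in sh-NC and of 235 and 299 in sh-IRF1. For megakaryocytes 2 of 3 markers were in the table, with a summed level of 69.8 and 86.3 in sh-NC and 40.8 and 32.8 in sh-IRF1. Of the 7 leukemic myeloid markers 4 were called lower, beside 21.9% of all tested genes. They summed to 35685 and 35527 in sh-NC and to 29898 and 29546 in sh-IRF1, all 7 included. Within these sums FLT3 alone had 17391 and 17412 in sh-NC and 12745 and 12634 in sh-IRF1. CD33, ANPEP and CD4 were not called, with log2 fold changes of 0.03, 0.01 and 0.01. MPO, the granule peroxidase, fell by 1.42 on the log2 scale, PTPRC, the CD45 gene, by 0.48 and FLT3 by 0.46. CSF1R, the M-CSF receptor gene, had a log2 fold change of -0.19 (adjusted p = 0.0357) and lost the call with any 1 library left out (adjusted p 0.0609 to 0.209). These 3 sums moved with the knockdown, and their part in the results below was not tested.

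The hairpin targets are printed because they define the perturbation. Each is written 5′ to 3′ in the sense of the IRF1 transcript, as the study's supplement lists it.
sh-IRF1#1: gcaccagtgatctgtacaact
sh-IRF1#2: ggaaattacctgaggacatca
The first target was found in 12 and the second in 13 of the 50 IRF1 transcripts of GENCODE 44. Neither was found in any of the 125 transcripts of the 10 program genes, and the longest run of bases that either shared with one of these was 9. Where in the target such a run lay was not examined. Effects of the hairpins on transcripts that match only part of a target were not tested.

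Of the 10 program genes, 6 were expressed well above the filter and 4 were close to 0. Of the 6 tested, 3 fell in sh-IRF1 (MEF2C, HOXA10 and JMJD1C) and 0 rose, against 42.2% of all 14120 tested genes called, 21.9% lower and 20.3% higher. HOXA9, MEIS1 and PBX3 did not pass the test. MEF2C was the 1 member called with a log2 fold change beyond 0.5, where 7.56% of all tested genes were lower and 8.27% higher. The 6 fold changes were all negative and had a median of -0.12, beside -0.0019 over all tested genes. Their median size of 0.12 lay below the 0.26 of all tested genes. The sets were not matched for level, and the median SE was 0.049 for the members and 0.108 for all tested genes. Because these were bulk libraries, fewer cells with a transcript and less transcript per cell cannot be told apart.

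**Figure D1:**
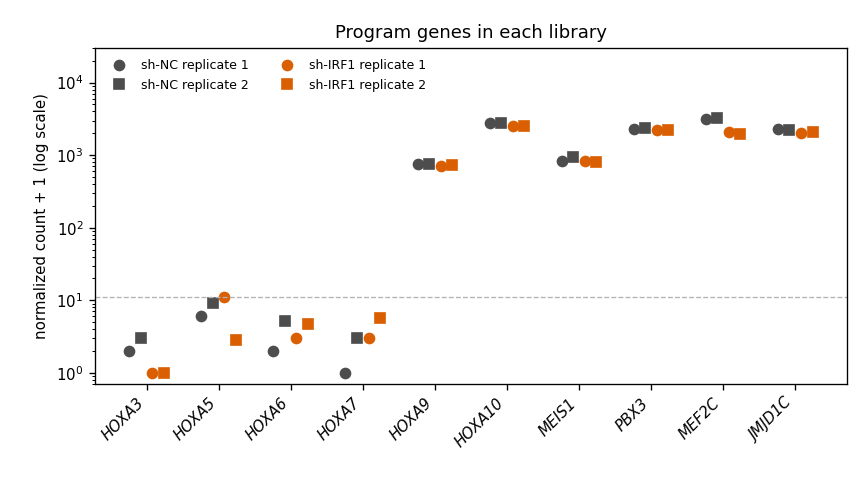
Normalized count + 1 (log axis) of the 10 program genes in each library, with sh-NC in grey, sh-IRF1 in orange, circles for replicate 1 and squares for replicate 2. The dashed line marks 10 normalized counts, the minimum for testing in at least 2 libraries. HOXA3, HOXA5, HOXA6 and HOXA7 lie at or under the line in every library, and MEF2C is the gene with a visible step from 3101 and 3290 in sh-NC to 2084 and 1945 in sh-IRF1.

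HOXA10 is a homeodomain factor of the posterior HOXA cluster and had the highest level per length of the 10 genes. It lies at chr7:27170605-27180261 (GRCh38, minus strand) and had 2791 and 2764 normalized counts in sh-NC and 2550 and 2491 in sh-IRF1. Both knockdown libraries lay below both controls. The difference was small, with a log2 fold change of -0.14 ± 0.05 SE (adjusted p = 0.0108) and a 95% interval from 85.2% to 96.7% of the control level. Without sh-IRF1 replicate 2 the call was lost (log2 fold change -0.12, adjusted p = 0.107).

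HOXA9, at chr7:27162438-27175180 (minus strand), encodes the factor most closely tied to KMT2A-rearranged leukemia. Its normalized counts were 745 and 757 in sh-NC and 703 and 731 in sh-IRF1. The groups did not overlap, but the gap between the nearest libraries was smaller than the distance between the knockdown libraries. The log2 fold change of -0.07 ± 0.08 SE was not called (adjusted p = 0.539), and the 95% interval ran from 85.4% to 107% of the control level. HOXA9 and HOXA10 overlap each other in the annotation, and 27.0% of the exonic bases of HOXA9 and 26.3% of those of HOXA10 are shared with some other gene on either strand. Reads from shared bases could be counted for more than 1 gene or for none, and both levels are uncertain to that extent.

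**Figure D2:**
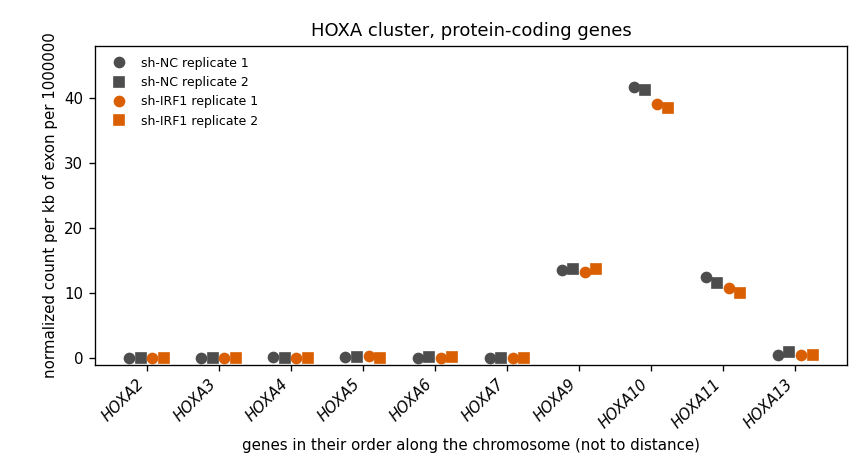
Level of 10 protein-coding HOXA genes in their order along the chromosome, as normalized counts per kb of merged exon per 1000000 counts of the library, in each library (sh-NC grey, sh-IRF1 orange, circles replicate 1, squares replicate 2). HOXA9, HOXA10 and HOXA11 stand between 10.1 and 41.6 in all 4 libraries and the other 7 genes reach at most 0.983.

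The anterior members were almost silent. HOXA3 had 1.03 and 2.05 normalized counts in sh-NC and 0 in both sh-IRF1 libraries, where a count of 0 allows up to 3 reads in each library. The values of HOXA5 were 5.13 and 8.22 in sh-NC and 9.95 and 1.87 in sh-IRF1. HOXA6 ranged from 1.03 to 4.11 and HOXA7 from 0 to 4.68 over the 4 libraries. The largest of these 16 values came from 10 reads, the groups of HOXA5, HOXA6 and HOXA7 overlapped, and none of the 4 genes was tested. At this depth a change in them was not detectable.

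Per length, the level was high from HOXA9 to HOXA11 and low on either side. HOXA2 to HOXA7 lay at 0 to 0.329 normalized counts per kb of exon per 1000000 counts in every library. On the same scale HOXA9 had 13.7 ± 0.14 (SD, n = 2) in sh-NC and 13.5 ± 0.41 in sh-IRF1, HOXA10 had 41.4 ± 0.35 and 38.7 ± 0.51, and HOXA11 had 12.1 ± 0.61 and 10.4 ± 0.51. HOXA13, past HOXA11, had 0.454 to 0.983 over the 4 libraries, and the non-coding HOTAIRM1, at the anterior side, 0.682 to 1.07. The ratio of HOXA10 to HOXA9 per length was 3.07 and 2.99 in sh-NC and 2.97 and 2.79 in sh-IRF1.

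Of 12 further genes listed inside the cluster, 8 were in the table and 6 were tested, of which 1 fell and 0 rose. Over all tested genes 21.9% fell and 20.3% rose. HOXA11, a posterior homeodomain gene, had 603 and 563 normalized counts in sh-NC and 507 and 471 in sh-IRF1. Its groups did not overlap and it was called lower (log2 fold change -0.25 ± 0.09 SE, adjusted p = 0.0272), with 27.2% of its exonic bases shared. The call was lost without sh-NC replicate 1 (adjusted p = 0.160), without sh-IRF1 replicate 2 (adjusted p = 0.193) and with DESeq2 (adjusted p = 0.0741).

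HOXA11-AS, the antisense transcript that overlaps HOXA11, had 251 normalized counts in each sh-NC library and 309 and 299 in sh-IRF1. This gene was not called (log2 fold change 0.28 ± 0.13 SE, adjusted p = 0.0795), 59.6% of its exonic bases are shared, and the use of strand in counting is not given in the sources used here. Per length, the ratio of HOXA11 to HOXA11-AS was 2.81 and 2.63 in sh-NC and 1.92 and 1.85 in sh-IRF1. The lower values were in the knockdown libraries, without overlap.

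HOXA13, the posterior end of the cluster, had 50.3 and 90.4 normalized counts in sh-NC and 46.8 and 40.3 in sh-IRF1. Both knockdown libraries lay below the controls, and the log2 fold change of -0.62 ± 0.30 SE was not called (adjusted p = 0.0852). Without sh-NC replicate 1 it was called lower (log2 fold change -1.04, adjusted p = 0.00803). The non-coding HOTAIRM1, HOXA10-AS and HOTTIP stayed between 10.9 and 28.1 normalized counts, with overlapping groups and adjusted p of 0.414 to 0.987.

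The 9 genes listed on either side of the cluster did not move in 1 direction. Of 8 tested, 3 fell and 3 rose, beside 21.9% lower and 20.3% higher over all tested genes. SNX10, a sorting nexin, rose from 55.4 and 98.6 normalized counts to 493 and 513 (log2 fold change 2.75, adjusted p = 3.61e-15). NFE2L3, a CNC family transcription factor with 28.1% of its exonic bases shared, and HIBADH, an enzyme of valine breakdown, rose by 0.39 and 0.35 on the log2 scale. Without sh-NC replicate 2 or without sh-IRF1 replicate 1, the adjusted p was 0.105 or 0.0906 for NFE2L3 and 0.0765 or 0.166 for HIBADH. The heterochromatin protein gene CBX3 and the RNA-binding protein gene HNRNPA2B1 fell by 0.35 and 0.30 on the log2 scale, and 12.5% of the exonic bases of HNRNPA2B1 are shared. JAZF1, a zinc finger gene, had 36.9 and 27.7 normalized counts in sh-NC and 15.9 and 6.56 in sh-IRF1 (log2 fold change -1.55, adjusted p = 0.0100). For JAZF1, 11.6% of the exonic bases are shared, and the call was lost without sh-NC replicate 1 (adjusted p = 0.0824) and without sh-IRF1 replicate 2 (adjusted p = 0.151).

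Outside the HOXA cluster, 12 of 28 listed HOX genes were in the table and 7 were tested, with 2 lower and 0 higher. The shares over all tested genes were 21.9% lower and 20.3% higher. HOXB3 and HOXB4, which act in hematopoietic progenitors, fell by 0.55 and 0.43 on the log2 scale. HOXB3 had 131 and 119 normalized counts in sh-NC and 94.5 and 76.8 in sh-IRF1 (adjusted p = 0.0306), with 11.7% of its exonic bases shared. HOXB4 had 193 in each sh-NC library and 133 and 154 in sh-IRF1 (adjusted p = 0.0328). The groups of both genes were apart, but neither call was stable to single libraries. HOXB3 was lost without sh-NC replicate 1 (adjusted p = 0.142) and without sh-IRF1 replicate 2 (adjusted p = 0.235). HOXB4 was lost without sh-NC replicate 1 (adjusted p = 0.0850), sh-NC replicate 2 (adjusted p = 0.0881) or sh-IRF1 replicate 1 (adjusted p = 0.221). With DESeq2 the adjusted p was 0.0927 for HOXB3 and 0.0953 for HOXB4.

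The TALE cofactors of the program, MEIS1 and PBX3, were not called. MEIS1, at chr2:66433452-66573869 (plus strand), had 834 and 936 normalized counts in sh-NC and 838 and 802 in sh-IRF1. One knockdown library lay between the controls, so the groups overlapped. Its log2 fold change of -0.11 ± 0.08 SE (adjusted p = 0.267) had a 95% interval from 83.4% to 103% of the control level, and 13.3% of its exonic bases are shared.

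PBX3, at chr9:125747345-125967377 (plus strand), had 2296 and 2401 normalized counts in sh-NC and 2211 and 2246 in sh-IRF1. The groups did not overlap, with a gap between the nearest libraries smaller than the distance between the controls. The log2 fold change was -0.08 ± 0.05 SE (adjusted p = 0.218), and the 95% interval ran from 88.7% to 102% of the control level.

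Some relatives of these cofactors were called. Of 10 listed genes, those of the TALE family and the PBX-binding protein gene PBXIP1, 7 were tested, with 3 lower and 1 higher. The higher gene was PBXIP1. Over all tested genes 21.9% were lower and 20.3% higher, and the difference from these shares was not tested. MEIS2, a paralog of MEIS1, had 660 and 646 normalized counts in sh-NC and 457 and 462 in sh-IRF1 (log2 fold change -0.51 ± 0.09 SE, adjusted p = 1.09e-05). The groups were well apart, and per length the ratio of MEIS1 to MEIS2 was 1.37 and 1.57 in sh-NC and 1.99 and 1.89 in sh-IRF1. TGIF2, a repressor of TGF-beta responses, fell by 0.30 ± 0.07 SE (adjusted p = 0.000938). TGIF1, its paralog, had a log2 fold change of -0.26 ± 0.10 SE (adjusted p = 0.0233). That call was lost with DESeq2 (adjusted p = 0.0629), without sh-NC replicate 1 (adjusted p = 0.0684), sh-NC replicate 2 (adjusted p = 0.0623), sh-IRF1 replicate 1 (adjusted p = 0.0726) or sh-IRF1 replicate 2 (adjusted p = 0.101).

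PBXIP1, which encodes a protein that binds PBX factors, rose from 569 and 503 normalized counts to 1146 and 1116 (log2 fold change 1.08 ± 0.08 SE, adjusted p = 9.17e-16). All knockdown values were above all controls. PBX2 had a log2 fold change of 0.06 (adjusted p = 0.566) with 15.2% of its exonic bases shared. PKNOX1, also a TALE gene, had -0.20 (adjusted p = 0.0640) and was called without sh-NC replicate 1 (adjusted p = 0.0418). PBX4, at 26.2 to 32.9 normalized counts, had -0.20 (adjusted p = 0.706).

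**Figure D3:**
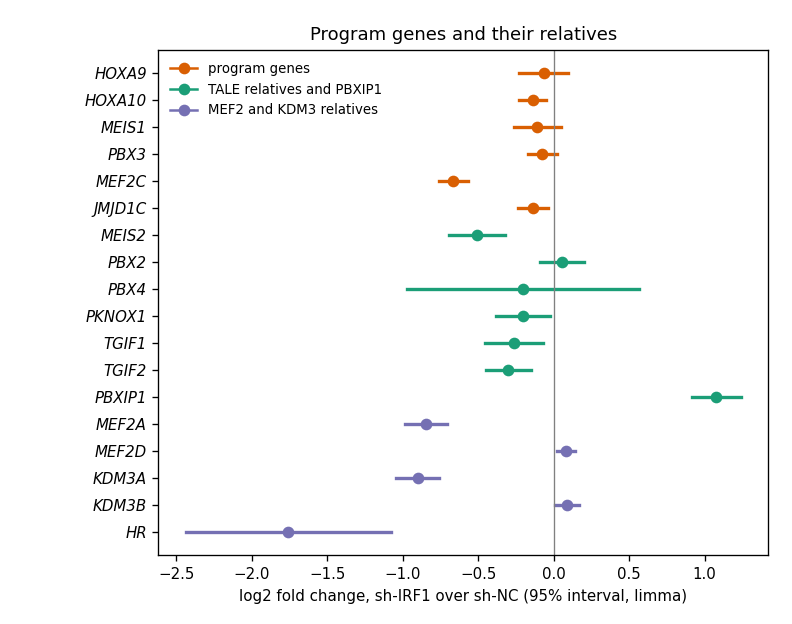
Log2 fold change (sh-IRF1 over sh-NC, points) with its 95% interval from limma (bars) for the 6 tested program genes in orange, the TALE relatives with PBXIP1 in green, and MEF2 and KDM3 relatives in purple. The interval of MEF2C, from -0.76 to -0.57, does not reach that of any other program gene, the lowest of which starts at -0.26.

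MEF2C was the member with the largest change. It encodes a MADS-box transcription factor of muscle, neural and lymphoid development that is highly expressed in KMT2A-rearranged leukemia, and it lies at chr5:88717117-88904257 (minus strand). The gene had 3101 and 3290 normalized counts in sh-NC and 2084 and 1945 in sh-IRF1. The groups were far apart in comparison with the spread within each. The knockdown mean was 63.0% of the control mean, and the log2 fold change was -0.67 ± 0.05 SE (adjusted p = 4.25e-16). Leaving out any 1 library gave values from -0.72 to -0.62. Over all tested genes, 84.4% had a smaller absolute change.

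Per length, MEF2C was the third most abundant member in sh-NC and the fifth in sh-IRF1. In sh-NC the order was HOXA10, PBX3 (26.4 ± 0.80 SD on the length-scaled level), MEF2C (15.0 ± 0.60), HOXA9, JMJD1C (11.1 ± 0.36) and MEIS1 (4.46 ± 0.36). In sh-IRF1 it was HOXA10, PBX3 (25.9 ± 0.38), HOXA9, JMJD1C (10.4 ± 0.25), MEF2C (9.76 ± 0.44) and MEIS1 (4.27 ± 0.12). In both groups HOXA5, HOXA6, HOXA7 and HOXA3 followed, at 0.214 or less. The lower library of 1 gene lay above the higher library of the next at every step among the first 6 genes in both groups. Among the last 4 the libraries of neighbouring genes overlapped in sh-NC.

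Of the MEF2 family and its control by class IIa histone deacetylases, 13 genes were listed and 12 were tested, with 2 lower and 3 higher. Over all tested genes 21.9% were lower and 20.3% higher. MEF2A had 1465 and 1402 normalized counts in sh-NC and 835 and 761 in sh-IRF1 (log2 fold change -0.85 ± 0.07 SE, adjusted p = 1.76e-14), with 11.1% of its exonic bases shared. MEF2D, the paralog with the highest level per length, had 10732 and 10909 in sh-NC and 11464 and 11468 in sh-IRF1 (log2 fold change 0.08 ± 0.03 SE, adjusted p = 0.0169). MEF2A was lower and MEF2D slightly higher in both knockdown libraries.

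The MEF2D call was lost without sh-NC replicate 1 (adjusted p = 0.0615), sh-IRF1 replicate 1 (adjusted p = 0.107) or sh-IRF1 replicate 2 (adjusted p = 0.113). Per length, the ratio of MEF2C to MEF2D was 0.156 and 0.163 in sh-NC and 0.0982 and 0.0916 in sh-IRF1, and that of MEF2C to MEF2A was 1.28 and 1.42 in sh-NC and 1.51 and 1.55 in sh-IRF1. MARK3, a kinase of the family that can phosphorylate class IIa deacetylases, had a log2 fold change of -0.15 (adjusted p = 0.0217). Its call was lost without sh-NC replicate 2 (adjusted p = 0.356), without sh-IRF1 replicate 1 (adjusted p = 0.237) and with DESeq2 (adjusted p = 0.0637). STK11, the kinase upstream of such kinases, had 0.18 (adjusted p = 0.000260). HDAC4, a class IIa deacetylase, had 0.19 (adjusted p = 0.00996), and its adjusted p was 0.327 without sh-NC replicate 1 and 0.213 without sh-IRF1 replicate 2.

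The promoter windows of the members were taken from RefSeq (GRCh38.p14), from 250 bases before to 50 bases after each annotated start. Of the 10 members, 9 had 24 such windows in all, and HOXA5 had none. The IRF motif, GAAA followed by any 2 bases and a second GAAA, was searched on both strands, as the motifs below were. It was in 0 of the 24 windows and in 3.57% of the 35116 windows of all genes. These letters are not in these windows. The PBX-HOX motif TGATNNAT was in 1 of the 24 windows and 7.40% of all, and the MEIS core TGACAG was in 4 of the 24 and 15.8% of all. None of the 3 motifs contains another.

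The window with the PBX-HOX letters belonged to MEF2C, and 1 of the MEIS matches lay in it too. It is shown because MEF2C changed most and because both cofactor motifs occur in it. The 250 bases before this start (chr5:88824345-88824594, GRCh38.p14, written 5′ to 3′ on the minus strand) lie inside the gene span of MEF2C. Capitals mark the PBX-HOX matches 212 and 95 bases before the start and the MEIS match 29 bases before it.
MEF2C: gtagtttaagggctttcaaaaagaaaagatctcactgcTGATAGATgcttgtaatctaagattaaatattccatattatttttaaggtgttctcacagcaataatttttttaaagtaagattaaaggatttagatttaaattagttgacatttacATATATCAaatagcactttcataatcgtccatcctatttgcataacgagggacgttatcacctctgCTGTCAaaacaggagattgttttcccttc
MEF2C had 7 windows, of which 3 held the MEIS core. The remaining match to the MEIS core was in the window of PBX3, 20 bases before its start. Which of these starts the cells used was not analysed here.

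JMJD1C encodes a large jumonji-domain protein of the KDM3 family that serves as a coactivator in myeloid leukemia. It lies at chr10:63167221-63521850 (minus strand) and had 2299 and 2202 normalized counts in sh-NC and 2014 and 2074 in sh-IRF1. The groups did not overlap. The log2 fold change of -0.14 ± 0.05 SE was called (adjusted p = 0.0217), with a 95% interval from 84.7% to 97.4% of the control level. The call was lost without sh-NC replicate 1 (adjusted p = 0.160), sh-IRF1 replicate 1 (adjusted p = 0.159) or sh-IRF1 replicate 2 (adjusted p = 0.0559), and with DESeq2 (adjusted p = 0.0534).

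Of 3 KDM3 relatives of JMJD1C tested, 2 fell and 0 rose, beside 21.9% lower and 20.3% higher over all tested genes. KDM3A, a demethylase of lysine 9 of histone H3, had 1317 and 1306 normalized counts in sh-NC and 689 and 714 in sh-IRF1 (log2 fold change -0.90 ± 0.07 SE, adjusted p = 5.12e-15). HR, the hairless corepressor, had 67.7 and 70.9 in sh-NC and 19.9 and 19.7 in sh-IRF1 (log2 fold change -1.76 ± 0.34 SE, adjusted p = 2.66e-05). In both genes the groups were far apart. KDM3B had a log2 fold change of 0.09 and was not called (adjusted p = 0.0713), though it was with edgeR (adjusted p = 0.0462).

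Of the 6 tested members, 5 had groups that did not overlap, each with sh-IRF1 lower, against 35.0% of all tested genes not overlapping in that direction and 34.2% in the other. MEIS1 was the exception. In the plot of fold changes the members other than MEF2C lie near 0 together with PBX2, MEF2D and KDM3B. MEIS2, PBXIP1, MEF2A, KDM3A and HR lie farther from it than those members do. TGIF1, TGIF2, PKNOX1 and PBX4 lie between these sets, at -0.26, -0.30, -0.20 and -0.20.

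The machinery that KMT2A fusions work through was mixed. All 31 listed genes were tested, with 11 lower, 9 higher and a median log2 fold change of 0.02. The shares over all tested genes were 21.9% lower and 20.3% higher. KMT2A had 2745 and 2825 normalized counts in sh-NC and 3223 and 3202 in sh-IRF1 (log2 fold change 0.21 ± 0.04 SE, adjusted p = 0.000116), with 19.3% of its exonic bases shared. AFF1, the fusion partner in these cells, had 2954 and 2997 in sh-NC and 3741 and 3762 in sh-IRF1 (0.33 ± 0.04 SE, adjusted p = 4.27e-09). Both were higher in each knockdown library, and gene counts do not separate the fusion transcript from the unfused genes.

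MEN1, the menin scaffold that KMT2A fusions need, had a log2 fold change of 0.21 (adjusted p = 0.00158), and its adjusted p was 0.0580 without sh-NC replicate 2. DOT1L, the methyltransferase of lysine 79 of histone H3, had 0.06 (adjusted p = 0.173), with 11.3% of its exonic bases shared, and was called without sh-NC replicate 2 (adjusted p = 0.00919). Of the other genes, MLLT1, a reader protein and fusion partner, rose by 0.36, MLLT6 by 0.29 and HCFC1, a cofactor of KMT2A complexes, by 0.27 on the log2 scale. PSIP1, which tethers menin and KMT2A to chromatin, fell by 0.48 from 3215 and 3093 normalized counts to 2293 and 2233. AFF4, a scaffold of the super elongation complex, fell by 0.49, RTF1, which works with the PAF complex, by 0.40, and WDR5, a core subunit of KMT2 complexes with 11.2% of its exonic bases shared, by 0.38.

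Of 29 other genes listed as targets of KMT2A fusions or of HOXA9 and MEIS1, 22 were tested, with 10 lower and 3 higher, beside 21.9% lower and 20.3% higher over all tested genes. Their median log2 fold change was -0.18, and the difference between the directions was not tested. With a change beyond 0.5 there were 5 lower and 1 higher. MYC, the proliferation factor, fell by 0.97 ± 0.03 SE, from 14198 and 14561 normalized counts to 7380 and 7348. The knockdown values were close to each other and far below both controls.

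FLT3, the receptor kinase of progenitors, fell by 0.46 from 17391 and 17412 normalized counts to 12745 and 12634. BCL2, the survival factor, fell by 0.52 from 2988 and 2964 to 2055 and 2109. MBNL1, a splicing regulator with 15.9% of its exonic bases shared, fell by 0.53. In each of these 3 genes all knockdown libraries lay below all controls. SOX4, a progenitor transcription factor, rose by 0.68, and SYK, a signalling kinase, by 0.31. GNAQ, a G protein subunit, had a log2 fold change of 0.15 (adjusted p = 0.00392), which was not called without sh-IRF1 replicate 2 (adjusted p = 0.0960).

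MYB and CDK6, known direct targets of KMT2A fusions, were not called. MYB had 5932 and 6054 normalized counts in sh-NC and 5956 and 5945 in sh-IRF1, with overlapping groups and a log2 fold change of -0.01 ± 0.03 SE (adjusted p = 0.840). CDK6 had 13957 and 14323 in sh-NC and 14435 and 14368 in sh-IRF1 (0.03 ± 0.03 SE, adjusted p = 0.465).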

How the data were processed

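Total RNA of 4 MV4-11 libraries (2 sh-NC, 2 sh-IRF1) was sequenced by a service company. The submitters' processing notes name HISAT2 (2.0.5) and hg38. How reads were counted, on which annotation and whether by strand is not given in the sources used here. The authors deposited a normalized signal, each gene's reads over 1 size factor per library. In all libraries 100% of the values were whole multiples of the value of 1 read (tolerance 0.0001 of a read), from which reads were recovered.

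log2(value + 1) was tested with limma (3.58.1, in R 4.3.3, variance trend and robust shrinkage, 43.0 prior degrees of freedom) over genes with at least 10 in at least 2 libraries, with Benjamini-Hochberg adjustment. Symbols matched 23456 of 23622 identifiers. Positions, merged exon lengths and exonic bases shared with another gene on either strand came from GENCODE 44 on GRCh38. Bases shared are given where over 10%, beside a gene's values or here. They were 22.9% for IRF1, 19.8% for HOXA3, 47.8% for HOXA4, 40.1% for HOXA6 and 62.5% for HOXA7. For the non-coding HOTAIRM1, HOXA10-AS and HOTTIP they were 44.9%, 62.3% and 20.1%. Named pseudogenes took at most 1.90% of the reads of any listed gene.

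Alternatives were TMM and upper-quartile scaling, other filters and pseudocounts, edgeR (4.0.16) and DESeq2 (1.42.0) on recovered reads, no robust shrinkage, a replicate block, other call rules and leaving out each library. The scripts were tested on simulated data. The members and lists were chosen with earlier results of these data known. All members, IRF1 and the tested genes of the HOXA cluster and TALE lists are named, with KMT2A, AFF1, MEN1, DOT1L, FLT3, MYB, CDK6 and BCL2. From each other list up to 4 called genes per direction with the smallest p are named. KDM3B was named after its values were seen. 1 gene is not reported here.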

Additional observations from a re-analysis of the deposited data

How the results depend on the processing

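With 2 libraries per group the spread of a single gene is poorly known, and genes under about 10 reads could not be compared. MEF2C kept its direction and its call in all 14 alternatives (-0.72 to -0.62), HOXA10 in 13 of 14 and JMJD1C in 10 of 14. HOXA9, MEIS1 and PBX3 were called in none, and MEIS1 ranged from -0.19 to -0.03. Over the alternatives the median of all genes stayed between -0.0092 and 0.014. Over 122 single genes and 1679 alternative values, 62 lost the call, 8 gained it and 0 reversed. The count of members called lower was 1 to 3 with each library left out in turn, and that of members past a log2 fold change of 1 was 0. Of the rest of the HOXA cluster 0 genes were called lower with DESeq2, and 0 to 1 with each library left out. Leaving out libraries gave 1 to 3 higher genes beside the cluster, and 1 to 2 lower and 1 to 3 higher genes in the MEF2 list. The cause was not tested. Same-numbered libraries did not deviate together (correlation -0.015 over 14120 genes), so the replicate numbers were not taken as pairs. With a replicate block the number of members called lower was 3 and of members called higher 0, and the adjusted p was 0.00681 for HOXA10 and 0.0154 for JMJD1C.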

Other observations

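Genes of myeloid maturation, a list of 24 of which 19 were tested, had 10 lower and 5 higher members. Over all tested genes 21.9% were lower and 20.3% higher. The median log2 fold change of the list was -0.28. CEBPB, a transcription factor of monocytic cells with 12.6% of its exonic bases shared, had 3012 and 3093 normalized counts in sh-NC and 1906 and 1912 in the knockdown (log2 fold change -0.68). FCGR1A, the high-affinity IgG receptor, fell by 0.57 and CYBB, a subunit of the phagocyte oxidase, by 1.57 on the log2 scale. KLF4, a factor of monocyte differentiation, fell by 0.81. LYZ, the lysozyme gene with 34.7% of its exonic bases shared, rose from 1824 and 1785 normalized counts to 3276 and 3218, a log2 fold change of 0.85. The integrin gene ITGAX rose by 1.08, the adaptor gene TYROBP by 0.58 and SPI1, the myeloid master factor PU.1, by 0.17. All 8 genes had groups without overlap, and none lost its call in any alternative run.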
